A study of Mus musculus with 37 samples.

Results

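Krt7, Krt8, Krt18, Krt19 and Krt20, the keratins of simple epithelia and of the luminal layers of the urothelium, were followed in whole-transcriptome sequencing of mouse ureter and bladder. They were taken by symbol, and all 5 members were found among the 24421 gene symbols of the table. The mice were wild-type female BALB/c. N-butyl-N-(4-hydroxybutyl) nitrosamine (BBN), a carcinogen of the urothelium, was given in drinking water from 6 to 7 weeks of age for 18 weeks by the labels (17 to 20 weeks by the methods), and untreated mice drank tap water. UT stands for the ureter on the side with cancer in mice given BBN (11 libraries from 10 mice), UN for the side without cancer (7 libraries from 7 mice) and U the ureter of untreated mice (6 libraries, both ureters of 3 mice). There were also 10 bladders of BBN-treated mice and 3 bladders of the untreated mice. Each library was made from a whole piece of tissue, so fewer epithelial cells and less keratin RNA per cell cannot be told apart in any level below.

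Keratins are the intermediate filament proteins of epithelia, and a filament forms only from a type II keratin paired with a type I keratin. Krt8 (type II) and Krt18 (type I) are the first pair made in the embryo and the main pair of simple epithelia. Krt7 is a further type II partner, Krt19 a small type I keratin that lacks most of the tail domain, and Krt20 a type I keratin that in the urothelium marks the umbrella cells at the lumen. Basal and squamous cells use other pairs, such as Krt5 with Krt14 and Krt6a with Krt16.

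The labels were checked first on genes of all epithelia and of the neighbouring tissues. A list of 20 pan-epithelial genes (Epcam, Cdh1 and others) summed to between 439 and 810 CPM (counts scaled to a common library total) in U and to between 3735 and 4119 CPM in untreated bladder. A list of 5 adipocyte genes summed to between 16484 and 24133 CPM in U and to between 395 and 1126 CPM in untreated bladder, so adipocyte RNA made up more of the ureter pieces than of the bladders. In UT the adipocyte sum ran from 33.1 to 13419.6 CPM, and in UN from 3557 to 21314 CPM. One library stood apart: UN 2, the non-cancer side of mouse 2, had an epithelial sum of 57.5 CPM, Epcam at 3.2 CPM and an adipocyte sum of 21314 CPM, and held hardly any epithelial RNA. The main results that rest on UN are therefore given with and without it. The kidney list summed to 2251 CPM in UT 4, with Umod at 931 CPM, and to at most 42.2 CPM in every other library. The BBN bladders of mice 1, 3 and 4 had low RNA integrity in the study's sample list and were shallow, and the BBN bladder comparison of each member is given with and without them. UT 9 and the BBN bladder of mouse 6 were left out of the tests and are included in the ranges of levels.

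Krt7, Krt8 and Krt18 lie on chromosome 15 and Krt19 and Krt20 on chromosome 11 (GENCODE vM21, GRCm38). Krt8 (15, 101996698 to 102004482, minus strand) and Krt18 (15, 102028180 to 102032027, plus strand) are neighbours that point away from each other across 23.7 kb, although one is type II and the other type I. Krt7 (15, 101411043 to 101430313, plus strand) is in the same cluster. Krt19 (11, 100140810 to 100148665, minus strand) and Krt20 (11, 99428403 to 99438150, minus strand) are in the type I cluster. A processed pseudogene, Krt8-ps (7, 23357125 to 23358069), is absent from the table as a row of its own. Krt8 had a fractional count in 19 of 37 libraries and Krt19 in 27, against 0 for Krt18 and Krt20, and 3 for Krt7. A fractional count can arise where a read is divided between places in the genome, so the levels of Krt8 and Krt19 carry that uncertainty, whose size was not tested. Annotated RNAs on the opposite strand overlap Krt7 (Gm671) and Krt8 (Gm36026), and their reads cannot be told apart where strand was not used in counting, which the sources do not state.

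Promoter sequences of RefSeq (GRCm38.p6) were available for 4 of the 5 members, Krt19 being the one named only. They are shown beside the levels, and no link between sequence and level was tested. Each run is the part of the 250 bases before the RefSeq start that also lies before the start of the GENCODE coding transcript, written 5′ to 3′ on the strand of the gene. Capitals mark AGGTCA, a nuclear receptor half-site, and TATAAA, the core of the TATA box, each searched on both strands.
Krt7 (chr15:101412153-101412401, plus strand): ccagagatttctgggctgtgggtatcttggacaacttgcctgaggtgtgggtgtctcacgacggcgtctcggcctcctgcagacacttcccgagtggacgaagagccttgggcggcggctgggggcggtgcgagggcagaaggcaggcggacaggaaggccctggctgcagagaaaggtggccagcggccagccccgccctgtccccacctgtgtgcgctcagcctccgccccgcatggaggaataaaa
Krt8 (chr15:102004483-102004592, minus strand): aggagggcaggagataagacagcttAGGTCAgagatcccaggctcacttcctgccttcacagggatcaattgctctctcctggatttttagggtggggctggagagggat
Krt18 (chr15:102027966-102028179, plus strand): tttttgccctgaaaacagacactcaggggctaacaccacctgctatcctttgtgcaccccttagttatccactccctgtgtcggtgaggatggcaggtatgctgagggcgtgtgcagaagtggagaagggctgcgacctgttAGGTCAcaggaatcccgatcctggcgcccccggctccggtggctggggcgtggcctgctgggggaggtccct
Krt20 (chr11:99438154-99438403, minus strand): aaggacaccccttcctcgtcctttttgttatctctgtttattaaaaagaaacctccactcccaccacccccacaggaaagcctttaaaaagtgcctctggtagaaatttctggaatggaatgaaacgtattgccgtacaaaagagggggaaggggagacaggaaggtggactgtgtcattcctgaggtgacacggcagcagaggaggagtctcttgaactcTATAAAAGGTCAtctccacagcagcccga
AGGTCA was found in the 250 bases of Krt8, Krt18 and Krt20, at 225, 108 and 23 bases before the RefSeq start. The runs shown for Krt8 and Krt18 end at the GENCODE start and are shorter, 110 and 214 bases. AGGTCA was held by 14% of 32851 mouse promoters of the same length. In Krt20 it directly followed TATAAA, which began 29 bases before the start and was held by 12.4% of promoters. The GC box GGGCGG was found in Krt7 among the members shown and in 32.7% of promoters. The GATA site AGATAA was found in Krt8 and Krt20 (9.99% of promoters) and the ETS site ACAGGAAG in Krt7 and Krt20 (2.90%). The forkhead site TGTTTAC was in 0 of the 4 windows and in 3.17% of all promoters. The AP-1 site (TGANTCA) was likewise in 0 windows and in 6.75% of promoters, and the Grainyhead-like site (AACCGGTT) in 0 windows and 0.116% of promoters. The motifs were chosen after the sequences had been seen, and a match is a description of letters only.

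In untreated bladder the 5 keratins were among the abundant RNAs of the tissue. Krt7 was at 2929, 2759 and 2827 CPM in bladders 1, 2 and 3, and ranked 15th of 24421 symbols by mean CPM. Krt18 was at 2483, 2333 and 2297 CPM in the same order and Krt8 at 1880, 1610 and 1756 CPM. The 3 bladders were close to each other in all members, with a coefficient of variation of 3.01% for Krt7 and of 8.43% for Krt20. Krt19 was at 1335, 1201 and 1148 CPM and Krt20 at 337, 321 and 285 CPM. Per kilobase of transcript, where genes can be compared, Krt18 had a median of 1666 CPM per kb, Krt8 973, Krt19 869 and Krt20 167. The ranges of Krt8 (892 to 1041) and Krt19 (831 to 966) overlapped, but Krt8 was above Krt19 within each of the 3 bladders, while Krt18 lay above both and Krt20 below. The place of Krt7 depends on its annotated length: it had 1782 CPM per kb with the 1586 bases inside the RefSeq gene and 690 with the 4094 bases of the GENCODE transcript.

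In untreated ureter the same keratins were present at a lower share of the library. Krt7 was at 594, 530, 507, 317, 495 and 570 CPM in U 1R, 1L, 2R, 2L, 3R and 3L. Krt8 ranged from 146 to 331 CPM and Krt18 from 202 to 418 CPM, in each case with U 2L lowest and U 1R highest. Every U library lay under every untreated bladder for all 5 members, as it did for 39.5% of all 18757 genes tested. Krt19 ranged from 212 to 374 CPM and Krt20 from 60.8 to 128 CPM. In edgeR, 3 of 5 members were called lower in untreated ureter than in untreated bladder, where a call means a false discovery rate (FDR) under 0.1 and at least a 2-fold difference. Of all 18757 genes tested, 8.73% were called lower. Krt18 was lower by a log2 fold change of -2.50 ± 0.71 (SE, adjusted p = 0.0190), Krt8 by -2.48 ± 0.75 (adjusted p = 0.0264) and Krt7 by -2.19 ± 0.75 (adjusted p = 0.0535). Krt19 differed by -1.64 ± 0.75 (adjusted p = 0.170) and Krt20 by -1.29 ± 0.96 (adjusted p = 0.470), neither called. Without UN 2, which shares in the estimate of the spread, Krt19 was called as well (-1.64, adjusted p = 0.0395). Of the 20 pan-epithelial genes 17 were lower and 0 higher, with a median of -2.34 beside -0.01 over all genes. The members had a median of -2.19, close to that of the list.

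Set against the mean log2(CPM + 4) of the 20 pan-epithelial genes in the same library, the untreated tissues differed less. Krt7 stood 4.28 ± 0.16 log2 units above that mean in U and 4.47 ± 0.07 in untreated bladder (SD, n = 6 and 3). Krt18 stood at 3.71 ± 0.19 and 4.21 ± 0.10, and Krt8 at 3.29 ± 0.17 and 3.77 ± 0.10. Krt19 stood at 3.63 ± 0.17 in U and 3.26 ± 0.15 in bladder, and Krt20 at 2.05 ± 0.17 and 1.31 ± 0.18. So relative to epithelial genes the Krt8 and Krt18 pair was lower in ureter than in bladder and Krt19 and Krt20 were higher, which is a description of these values with no test.

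**Figure D1:**
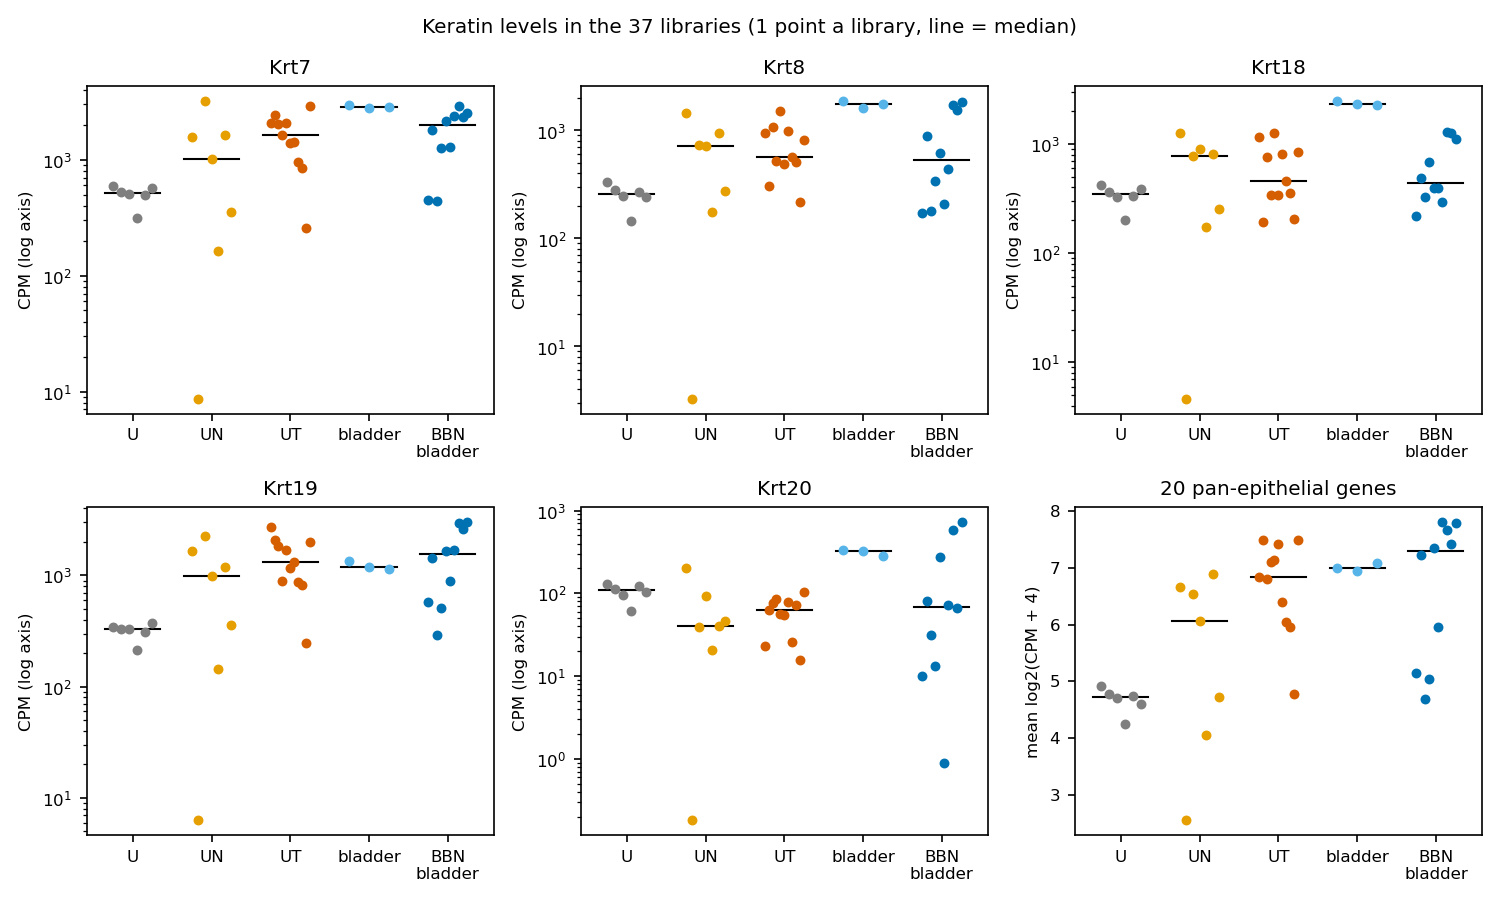
Each panel shows 1 keratin in CPM on a log axis, or in the last panel the mean log2(CPM + 4) of the 20 pan-epithelial genes, in the 6 U, 7 UN, 11 UT, 3 untreated bladder and 10 BBN bladder libraries, with 1 point a library and a line at the median. UN 2 is the lowest point of every panel, Krt18 of the BBN bladders lies wholly under that of the untreated bladders, and Krt20 of the BBN bladders spans from 0.905 to 720 CPM.

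In bladders of BBN-treated mice Krt18 was lower than in untreated bladders. Over the 10 BBN bladders Krt18 had a lowest value of 218 CPM, a median of 440 and a highest of 1278 CPM. The highest BBN bladder lay under the lowest untreated bladder, which held for 12.1% of 17984 genes tested. In the test of 9 BBN and 3 untreated bladders, 1 of 5 members was called lower and 0 higher, while 5.47% of 17984 genes tested were called lower and 7.08% higher. Krt18 had a log2 fold change of -1.55 ± 0.51 (SE, adjusted p = 0.0772, edgeR). Its direction was the same in all 18 alternatives, and the call was lost in 9 of them, among them the removal of the BBN bladder of mouse 1, 2, 5 or 7 and of each untreated bladder, with adjusted p up to 0.245. Without the bladders of mice 1, 3 and 4 the value was -1.58 (adjusted p = 0.0193).

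Krt8, the partner of Krt18, ran from 173 to 1840 CPM with a median of 530 CPM in BBN bladders. It was under 900 CPM in 7 of them and between 1539 and 1840 CPM in mice 8, 9 and 10, where the range met that of untreated bladder. Its log2 fold change was -0.92 ± 0.56 (95% interval -2.12 to 0.28, adjusted p = 0.283), and -0.60 without the bladders of mice 1, 3 and 4 (adjusted p = 0.279). Krt7 had a lowest value of 442, a median of 1981 and a highest of 2881 CPM, and a log2 fold change of -0.47 ± 0.48 (95% interval -1.50 to 0.55, adjusted p = 0.528), and -0.28 without those 3 bladders (adjusted p = 0.209). Krt7 was between 442 and 1280.3 CPM in the bladders of mice 1, 3, 4 and 6 and at least 1814 CPM in the other 6 bladders.

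Krt19 was the only member with a positive value in this comparison. It ran from 292 to 2997 CPM with a median of 1543, and in the 6 bladders other than those of mice 1, 3, 4 and 6 it lay between 1442 and 2997 CPM, above all 3 untreated bladders. Over the 9 tested bladders its log2 fold change was 0.53 ± 0.54 (95% interval -0.63 to 1.69, adjusted p = 0.532), which was not called. Without the low-integrity bladders of mice 1, 3 and 4 it was 0.84 ± 0.27 (adjusted p = 0.0362), past the FDR threshold but under the 2-fold limit of a call. Krt20, the umbrella cell keratin, was the most variable member, with 0.905 CPM in mouse 6, a median of 69.3 CPM and 720 CPM in mouse 10. The bladders of mice 8 and 10, at 586 and 720 CPM, lay above every untreated bladder and the other 8 below. Its log2 fold change of -0.58 ± 0.93 had a 95% interval from -2.58 to 1.43 (adjusted p = 0.712), and without those 3 bladders it was -0.08 (adjusted p = 0.949).

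Other epithelial genes of the same bladders give the setting. All 5 uroplakins, the plaque proteins of umbrella cells, were called lower, with a median log2 fold change of -4.07 beside 0.23 over all genes, led by Upk1a (-6.27 ± 0.75, adjusted p = 0.000212). Of the 9 suprabasal and squamous keratins 6 were called higher (median 6.57), with Krt6b at 9.32 ± 2.05 (adjusted p = 0.0110), and of the 4 basal keratins 2 were higher, Krt17 (8.39 ± 1.01) and Krt14 (8.0 ± 1.36). The pan-epithelial list had 0 genes higher and 1 lower of 20, with a median of 0.28. The 8 smooth muscle genes had 0 higher and 1 lower, and the 7 fibroblast genes 0 higher and 2 lower, with medians of -1.25 and -1.28, and their part in the keratin values was not tested. Of 14 epithelial transcription factors, Tfap2a and Klf4 were higher (4.61 ± 0.59 and 2.16 ± 0.48) and Pparg and Gata3 lower (-2.15 ± 0.39 and -1.96 ± 0.54). Of the 13 keratin partners and linkers, Pkp1 and Eppk1 were higher (4.07 ± 1.12 and 2.11 ± 0.52) and Tchp lower (-1.07 ± 0.35).

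**Figure D2:**
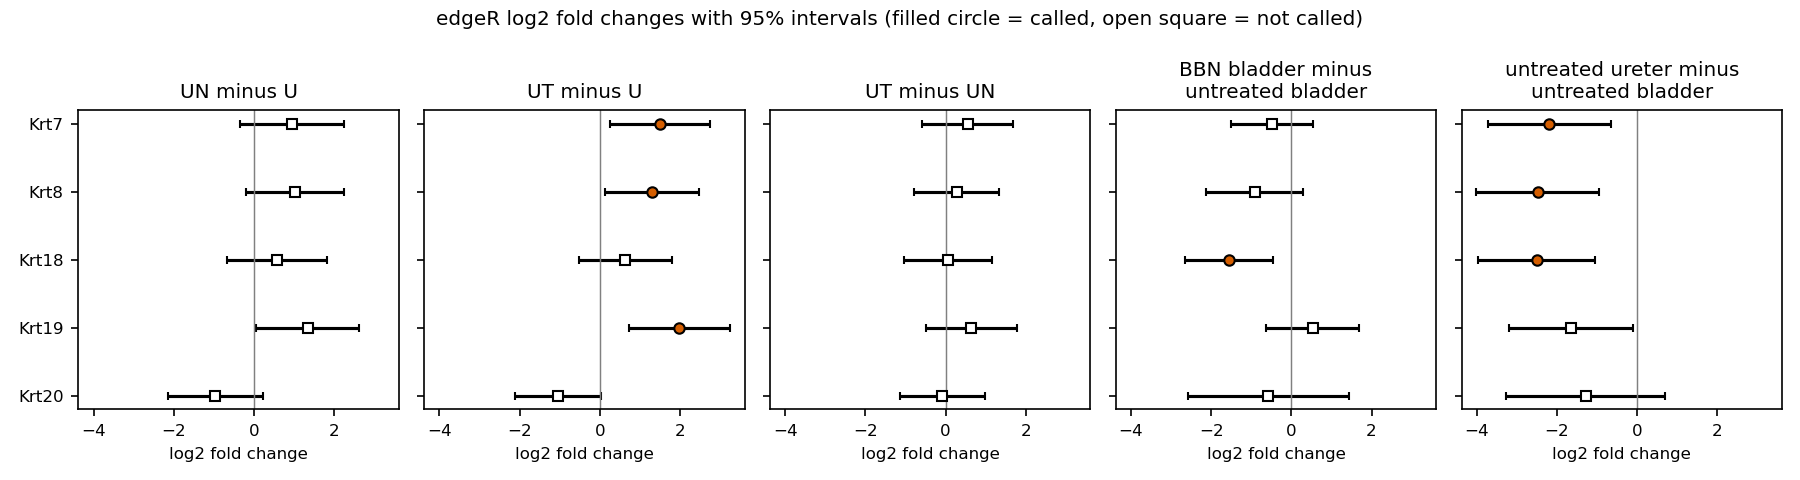
Log2 fold changes of the 5 keratins from edgeR in 5 comparisons, with 95% intervals as bars, filled circles for keratins called and open squares for the others. Krt7, Krt8 and Krt19 were called in UT against U, Krt18 in BBN bladder against untreated bladder, and Krt7, Krt8 and Krt18 in untreated ureter against untreated bladder, while 0 of 5 were called in UN against U and in UT against UN.

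On the cancer side of BBN-treated mice Krt19, Krt7 and Krt8 were higher than in untreated ureter. Krt19 had a lowest value of 249 CPM, in UT 9, a median of 1321 and a highest of 2726 CPM over 11 UT. The 10 UT libraries of the test lay between 827 and 2726 CPM, above every U library. The log2 fold change of Krt19 was 1.98 ± 0.61 (SE, adjusted p = 0.0109). Krt7 lay between 849 and 2888 CPM in the same 10 libraries, again above every U library, with UT 9 (255 CPM) below every U library, and had a log2 fold change of 1.5 ± 0.60 (adjusted p = 0.0446). Such a lack of overlap, with UT higher, was found for 20.7% of 15615 genes tested. Krt8 lay between 308 and 1529 CPM in those 10 libraries and at 216 CPM in UT 9, with UT 2 and UT 9 inside the range of U, and had a log2 fold change of 1.30 ± 0.57 (adjusted p = 0.0634). In all, 3 of 5 members were called higher and 0 lower, where 18.6% of 15615 genes tested were called higher and 14.4% lower. With RNA integrity as a covariate the calls of Krt7 (1.09, adjusted p = 0.231) and Krt8 (1.33, adjusted p = 0.110) ended and that of Krt19 held (1.74, adjusted p = 0.0552). Leaving out UT 5R, U 2R or U 2L ended the call of Krt8 (adjusted p 0.102 to 0.125), and with both ureters of each untreated mouse summed 0 members were called (Krt19 at 1.97, adjusted p = 0.101). The fit with summed ureters called 2413 of 16251 genes higher and 1933 lower.

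Krt18 and Krt20 were not called in either direction. Krt18 ran from 194 CPM in UT 2 to 1262 CPM in UT 5R, with a median of 457 CPM over 11 UT. UT 4, 5L, 8 and 9 lay inside the range of U and UT 2 below it, and the log2 fold change was 0.63 ± 0.56 (95% interval -0.53 to 1.80, adjusted p = 0.370). Krt20 ran from 15.7 CPM in UT 9 to 104 CPM in UT 10, with a median of 62.2 CPM against 109 CPM in U. Its log2 fold change was -1.04 ± 0.52 (95% interval -2.12 to 0.04), and was not called (adjusted p = 0.106). Without UN 2 it was called lower (-1.04, adjusted p = 0.0122), as it was by DESeq2 (adjusted p = 0.0925), without UN 1 (adjusted p = 0.0886), without UT 10 (adjusted p = 0.0905) and with all 11 UT (-1.10, adjusted p = 0.0883). It was also called lower with only the libraries of UT and U in the fit (-1.02, adjusted p = 0.0034) and without UN 2 and 6 (-1.04, adjusted p = 0.0096).

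Other genes of the epithelium in the same comparison give the setting. Of the 20 pan-epithelial genes 19 were called higher in UT than in U and 0 lower, with a median log2 fold change of 2.25 beside 0.08 over all genes and 1.30 over the 5 members. All 4 basal keratins (median 7.16, Krt17 at 8.84 ± 1.23) and all 9 suprabasal and squamous keratins (median 6.24, Krt6b at 8.08 ± 1.55) were higher. Of 5 uroplakins 3 were lower and 0 higher, namely Upk1a (-4.36 ± 0.74), Upk3b (-2.14 ± 0.67) and Upk2 (-1.97 ± 0.70). Of the 13 partners and linkers 9 were higher and 0 lower, led by the plakophilins Pkp1 (6.15 ± 1.03) and Pkp3 (3.23 ± 0.54) and by desmoplakin, Dsp (2.41 ± 0.53). Of 14 transcription factors 9 were higher, with Elf3 at 3.3 ± 0.61 and Tfap2a at 2.79 ± 0.49, and Pparg was lower at -2.48 ± 0.47. All 5 adipocyte genes and 7 of 8 smooth muscle genes were lower (medians -3.15 and -1.76). Of 6 immune genes 5 were higher and 0 lower (median 1.64), and their sum ran from 649 to 3733 CPM in UT, with UT 4 and 10 inside the range of U (389 to 756 CPM) and the other 9 above it. The part of these tissues in the keratin values was not tested.

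On the non-cancer side the keratins were widely spread. Krt7 was at 1557, 8.68, 3209, 1004, 163, 1620 and 354 CPM in UN 1, 2, 3, 4, 6, 7 and 9. Krt18 was at 1250, 4.66, 782, 909, 175, 819 and 254 CPM and Krt20 at 202, 0.183, 39.4, 93.4, 20.5, 40.9 and 46.6 CPM in the same order. UN 3 had more Krt7 than any UT library, UN 2, 6 and 9 had less Krt18 than 5 of the 6 U libraries, and the 0.183 CPM of Krt20 in UN 2 are 2 counts. Against U, 0 of 5 members were called, where 13.5% of 15615 genes were called in either direction. The log2 fold changes were 1.34 ± 0.62 for Krt19 (adjusted p = 0.153), 1.02 ± 0.59 for Krt8 (0.249), 0.95 ± 0.62 for Krt7 (0.314), 0.57 ± 0.60 for Krt18 (0.545) and -0.96 ± 0.57 for Krt20 (0.265), the values in parentheses being adjusted p. Without UN 2, Krt19 (1.56, adjusted p = 0.0197), Krt8 (1.24, adjusted p = 0.0281) and Krt7 (1.17, adjusted p = 0.0790) were called higher, while Krt18 (0.79, adjusted p = 0.205) and Krt20 (-0.74, adjusted p = 0.185) were not called. In that fit 1985 of 15607 genes were called higher and 319 lower. The direction of 3 members depended on the test, none of them called: limma-trend gave -0.17 for Krt7 and -0.27 for Krt18, and mouse as a random effect -0.31 for Krt7, -0.0092 for Krt8 and -0.37 for Krt18. Without UN 1, Krt20 was called lower (-1.52, adjusted p = 0.0808). Without UN 3, the highest library for Krt7, the values of Krt7 (0.32, adjusted p = 0.777) and Krt19 (0.88, adjusted p = 0.386) were smaller, and 0 members were called. All 4 basal keratins were called higher with all 7 UN, among them Krt17 (7.09 ± 1.16) and Krt14 (6.41 ± 1.02). Markers of other tissues differed as well. In the 6 UN other than UN 2 the adipocyte sum ran from 3557 to 15412 CPM, under every U library, and the immune sum lay between 1176 and 3438 CPM in 5 of them, above every U library, and at 223 CPM in UN 6. With all 7 UN, 3 of 6 immune genes were called higher (median 1.76) and 0 of 5 adipocyte genes were called (median -1.02), and their part in the keratin values was not tested.

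Between the cancer and the non-cancer side no keratin of the group was called. The log2 fold changes of UT against UN ran from -0.08 for Krt20 to 0.64 for Krt19, with standard errors of 0.51 to 0.55, and 10.8% of 15615 genes were called in either direction. That background was not stable: 1 gene of 15048 was called with only the libraries of UT and UN in the fit, 0 without UN 2 and 6 (2471 genes with an unadjusted p under 0.05), 0 with RNA integrity as a covariate (1372 such genes), and 168 higher and 367 lower without UN 6, all by edgeR. The 95% intervals reached from -0.49 to 1.77 for Krt19, from -0.58 to 1.69 for Krt7, from -0.79 to 1.34 for Krt8, from -1.03 to 1.15 for Krt18 and from -1.13 to 0.97 for Krt20, so with all 7 UN the interval of each member held differences of 2-fold. Without UN 2 the values were 0.34 for Krt7 and 0.42 for Krt19, with 95% half-widths of 0.83 and 0.80, and these intervals still held 2-fold differences. Those of Krt8 (0.056), Krt18 (-0.16) and Krt20 (-0.30), with half-widths of 0.68, 0.77 and 0.69, did not, and 0 members were called. The values of Krt7 and Krt19 were larger with limma-trend (1.60 and 1.59, adjusted p = 0.129 and 0.138), with mouse as a random effect (1.73 and 1.74, adjusted p = 0.147 and 0.155) and without UN 3 (1.19 and 1.10, adjusted p = 0.119 and 0.160), and 0 members were called in each. With the mouse as a block, on the 6 mice with both sides, 0 members and 0 genes in all were called by edgeR (459 of 14868 genes had an unadjusted p under 0.05).

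Within mice the direction was split. Krt18 was 1150 CPM in UT and 1250 CPM in UN of mouse 1, 194 and 4.66 CPM in mouse 2, 762 and 782 CPM in mouse 3, 344 and 909 CPM in mouse 4, 812 and 175 CPM in mouse 6, and 457 and 819 CPM in mouse 7. It was thus lower on the cancer side in 4 of 6 mice and higher in mice 2 and 6, whose UN libraries had the least epithelial RNA of the 6. The mean difference was 0.72 ± 2.22 on the log2(CPM + 4) scale (SD, exact sign-flip permutation p = 0.625, also 0.625 after adjustment over the 5 members). Krt7 was higher in UT in 4 of 6 mice (1.72 ± 3.18, exact sign-flip permutation p = 0.312) and Krt19 in 3 of 6 (1.77 ± 3.18, exact sign-flip permutation p = 0.312). Krt8 (1.11 ± 2.43) and Krt20 (0.49 ± 2.33) were each higher in 3 of 6. In mouse 9, which was not in the test, all 5 were lower in UT. Leaving out mouse 2 turned the mean of Krt18 to -0.04 and that of Krt20 to -0.20. It lowered the mean of Krt7 to 0.55, that of Krt19 to 0.60 and that of Krt8 to 0.24.

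**Figure D3:**
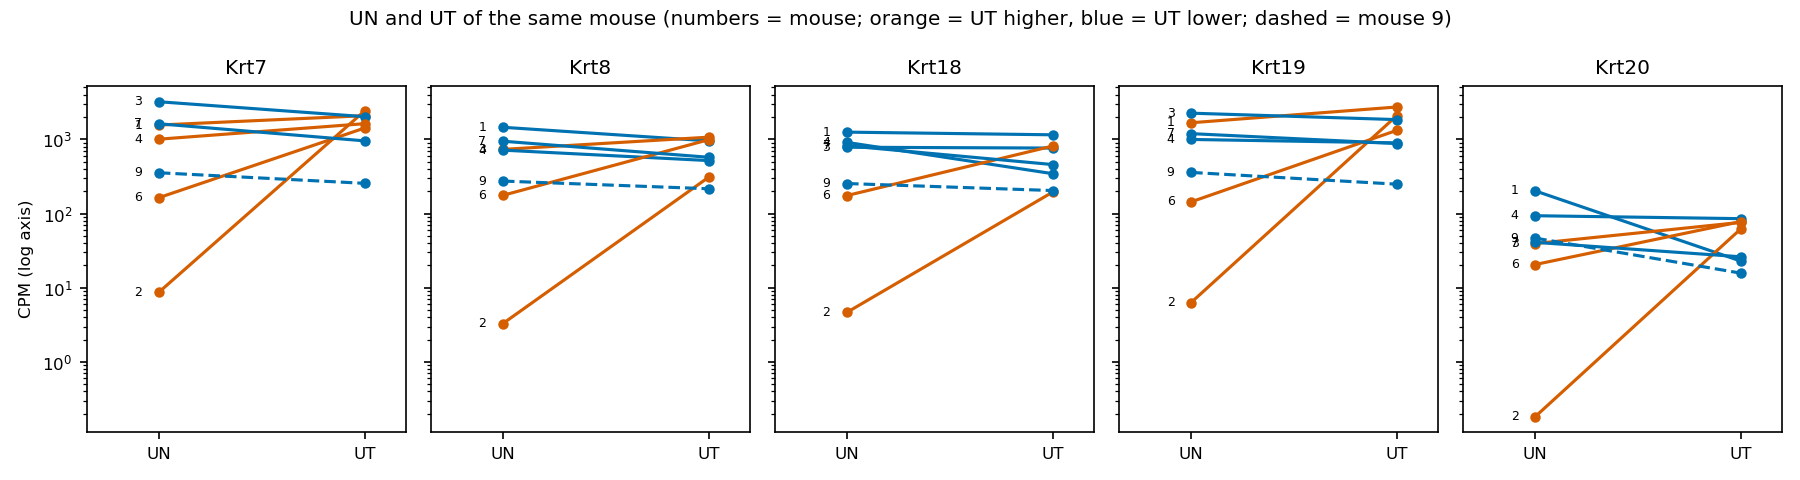
CPM on a log axis of each keratin in UN and UT of the same mouse, joined by a line, with the mouse number at the left, orange where UT is higher, blue where it is lower and dashed for mouse 9, which was not in the test. The lines of mice 2 and 6 rise in every panel, and those of mouse 7 fall in every panel.

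Both ureters of mouse 5 carried cancer, which gives a view of the spread within an animal. Krt8 was at 1529 CPM in the right and 492 CPM in the left ureter, and Krt18 at 1262 and 343 CPM. Krt7 (2060 and 1388 CPM), Krt19 (1699 and 1161 CPM) and Krt20 (56.9 and 55.5 CPM) differed less between the sides.

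The bulk levels mix the amount of epithelium with the keratins it holds, so each keratin was also set against the 20 pan-epithelial genes of its library. Of 20 tests (5 members in 4 comparisons) 6 had an adjusted p under 0.1 by exact permutation of libraries. The mean of the list itself was 2.19 log2 units higher in UT, and the median difference of all 15615 genes tested on this relative scale was -1.96, so a negative value here gives the distance from the list and not a lower level. Krt18 stood at 2.27 ± 1.08 log2 units in UT against 3.71 ± 0.19 in U (SD, exact permutation p = 0.00025, adjusted 0.0025), with all 10 UT under all 6 U (adjusted 0.0606 with both ureters of a mouse averaged). The same lack of overlap was found for 77.6% of genes tested, and the log2 fold change of Krt18 itself was 0.63 and not called. Krt20 stood at -0.90 ± 0.72 in UT against 2.05 ± 0.17 in U (exact permutation p = 0.00025, adjusted 0.0025), again without overlap, and 0.00025 is the smallest p that these group sizes allow. Krt7 differed by -0.45 (exact permutation p = 0.0015, adjusted 0.00749), whereas Krt19 differed by -0.01 (exact permutation p = 0.978). Krt8 was at 2.60 ± 0.93 against 3.29 ± 0.17 (exact permutation p = 0.0804, adjusted 0.179).

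The mean of the list differed by 0.68 log2 units between UN and U and by 1.51 between UT and UN, with the first group above the second in each. In UN, Krt20 differed from U relative to the list by -2.04 log2 units (exact permutation p = 0.00117, adjusted 0.00749), and by -1.95 without UN 2 (exact permutation, adjusted p = 0.0108). All 7 UN lay under all 6 U, as for 0.5% of 15615 genes tested. Krt18 differed by -0.78 in UN with UN 2 (exact permutation, adjusted p = 0.0738) and by -0.38 without it (exact permutation, adjusted p = 0.103). With UN 2, the median difference of all 15615 genes tested on this scale was -0.63, and 34.4% of genes lay lower than Krt18. In UT against UN the relative level of Krt18 differed by -0.67 with UN 2 (exact permutation, adjusted p = 0.315) and by -1.07 without it (exact permutation, adjusted p = 0.0400).

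In BBN bladders Krt8 relative to epithelial genes was at 2.60 ± 0.75 against 3.77 ± 0.10 in untreated bladders (exact permutation p = 0.00909, adjusted 0.0364), and all 9 BBN bladders lay under all 3 untreated ones, as for 6.02% of 17984 genes tested. The list differed by -0.32 between these groups. Krt18 differed by -1.76 but its adjusted p was 0.104 by exact permutation, with the bladder of mouse 4 above the untreated ones. Without the bladders of mice 1, 3 and 4 the difference of Krt18 was -2.32, with no overlap of the groups, and Krt7, Krt8 and Krt18 each had an adjusted p of 0.0595 by exact permutation. With the median of the list 3 of the 20 tests passed and with Cdh1 alone 2, and with Cdh1 the relative difference of Krt18 in UT against U was -1.42 (exact permutation, adjusted p = 0.105).

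**Figure D4:**
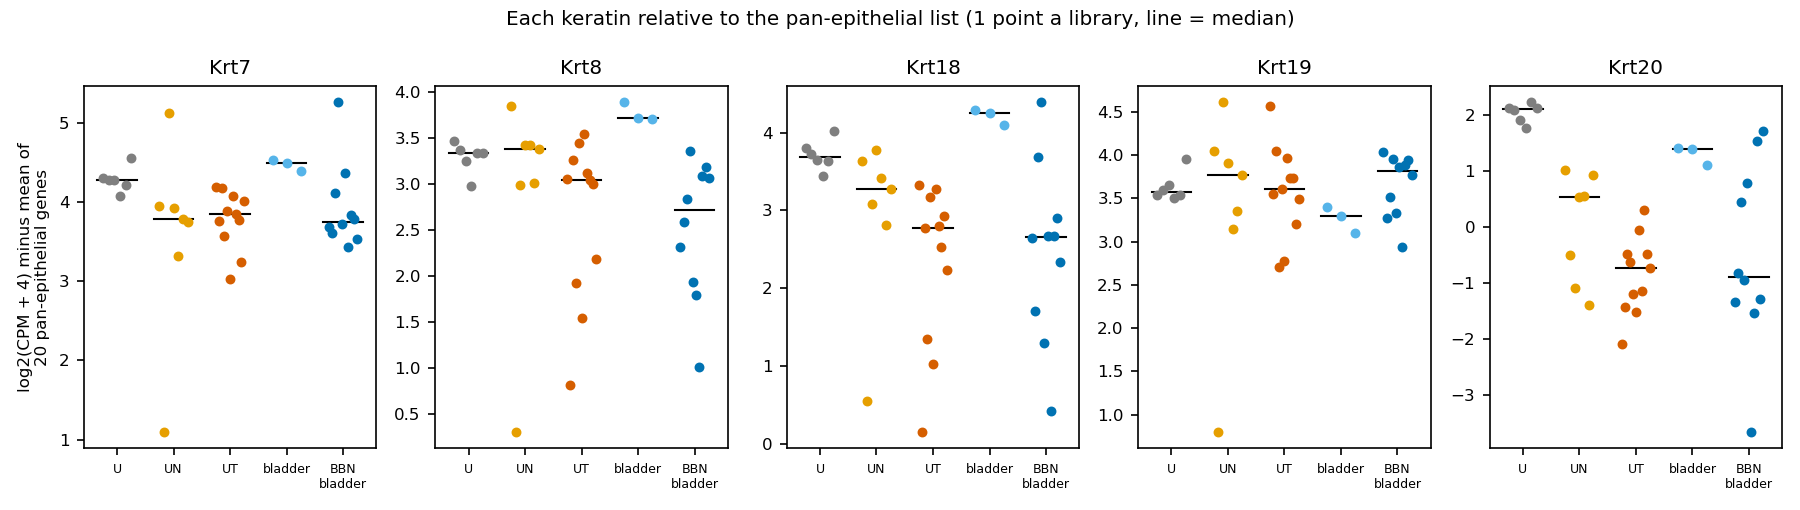
Each panel shows log2(CPM + 4) of 1 keratin minus the mean of the 20 pan-epithelial genes in the same library, 1 point a library, with a line at the median. The UT points of Krt18 and Krt20 lie wholly under those of U, as those of 77.6% of genes do in the 10 UT tested, while those of Krt19 lie around the same level as U.

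Ratios between keratins of the same library need no reference list. The ratio of Krt8 to Krt18, the type II and type I partners, ran from 0.620 to 0.814 in U and from 0.690 to 0.764 in untreated bladder. In UT it ran from 0.829 to 1.58 with a median of 1.25, above every U library in all 11. How often ratios of other gene pairs separate in this way was not counted. On the log2 scale the ratio was 0.33 ± 0.29 in UT against -0.42 ± 0.14 in U (SD, exact permutation p = 0.00025, adjusted over 4 comparisons 0.000999). In UN it was -0.02 ± 0.22, higher than in U by 0.40 (exact permutation p = 0.0035, adjusted 0.00699) and lower than in UT by 0.35 (exact permutation p = 0.0203, adjusted 0.0270). Without UN 2 these differences were 0.44 and 0.31 (exact permutation, adjusted p = 0.0130 and 0.0583). Within the 6 mice with both sides the ratio was higher in UT in 5, by a mean of 0.39 ± 0.54 (SD, exact sign-flip permutation p = 0.156), so the paired test did not pass, nor did it without mouse 2 (0.28, exact sign-flip permutation p = 0.312). With both ureters of a mouse averaged, the difference of UT and U was 0.74 (exact permutation, adjusted p = 0.0364). That of UN and U was then 0.40 (exact permutation p = 0.0333, before adjustment).

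BBN bladders fell into a wider range, from 0.489 to 1.84. The bladders of mice 2, 5, 7, 8, 9 and 10 had ratios between 1.21 and 1.84, above untreated bladder, and those of mice 3, 4 and 6 had 0.550, 0.489 and 0.536, below it, and that of mouse 1 had 0.796. The difference from untreated bladder was 0.59 on the log2 scale (exact permutation, adjusted p = 0.173), and 1.03 without the low-integrity bladders of mice 1, 3 and 4 (exact permutation, adjusted p = 0.0238, the smallest p those group sizes allow).

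Krt19 was higher against Krt18 in each BBN group. The ratio of Krt19 to Krt18 had a median of 0.945 (0.830 to 1.05) in U, 1.35 (0.821 to 2.88) in UN and 2.37 (1.22 to 10.7) in UT. It had a median of 0.515 (0.500 to 0.538) in untreated bladder and 2.49 (0.741 to 5.76) in BBN bladder. All 11 UT lay above all 6 U, and all 10 BBN bladders above all 3 untreated bladders. All 10 pairs of members were tested in the 4 comparisons, a family of 40 tests chosen after the levels had been seen. An adjusted p under 0.1 was found for 9 of 10 pairs in UT against U, 7 in UN against U, 5 in UT against UN and 5 in BBN bladder, and with both ureters of a mouse averaged for 8, 2, 3 and 5. How many pairs of other genes pass or separate in this way was not counted. Neither these counts nor the lack of overlap can therefore be read as particular to the keratins. In the 3 ureter comparisons the largest differences were in pairs with Krt20. In UT against UN this rested on UN 2, and without it the largest was Krt7 to Krt18, at 0.92. The log2 ratio of Krt19 to Krt20 was higher by 2.93 in UT against U (exact permutation, adjusted p = 0.00167), by 1.78 in UN against U (exact permutation, adjusted p = 0.0214) and by 1.83 in BBN bladder (exact permutation, adjusted p = 0.0214). With both ureters of a mouse averaged the value in UN against U missed the threshold (exact permutation, adjusted p = 0.121). In UT against UN it was 1.15 (exact permutation, adjusted p = 0.0983) and without UN 2 0.81 (exact permutation, adjusted p = 0.217). The log2 ratio of Krt18 to Krt19 differed by -1.43 in UT against U (exact permutation, adjusted p = 0.00167), by -0.52 in UN against U (exact permutation, adjusted p = 0.0373), by -0.91 in UT against UN (exact permutation, adjusted p = 0.0214) and by -2.13 in BBN bladder against untreated bladder (exact permutation, adjusted p = 0.0214). Without UN 2 the difference was -0.88 in UT against UN (exact permutation, adjusted p = 0.0340) and -0.55 in UN against U (exact permutation, adjusted p = 0.0577). The difference in UT against UN was not tested within mice, as only the Krt8 to Krt18 ratio was. With both ureters of a mouse averaged UN against U missed the threshold (exact permutation, adjusted p = 0.128). The ratio of Krt7 to Krt18 was higher by 0.99 in UT against U (exact permutation, adjusted p = 0.00167) and by 1.17 in BBN bladder (exact permutation, adjusted p = 0.0214). That of Krt7 to Krt19 differed by -0.44 in UT against U (exact permutation, adjusted p = 0.0190) and by -0.95 in BBN bladder (exact permutation, adjusted p = 0.0632). With both ureters of a mouse averaged the first of these was -0.45 and missed the threshold (exact permutation, adjusted p = 0.121).

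**Figure D5:**
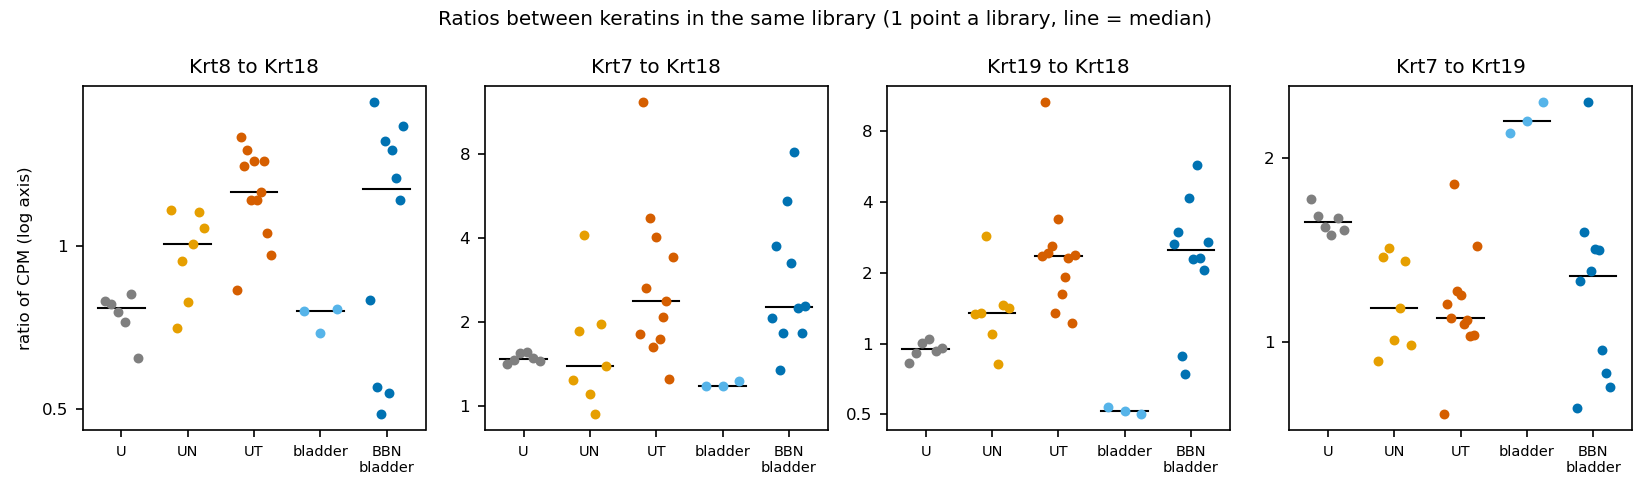
Ratios of CPM between pairs of keratins in the same library on a log2 axis, 1 point a library, with a line at the median. The ratios of Krt8 and of Krt19 to Krt18 are higher in all 11 UT than in all 6 U, and the Krt19 to Krt18 ratio is higher in all 10 BBN bladders than in the 3 untreated ones. Such separation was not counted for pairs of other genes.

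The effect of BBN was also compared between the tissues. The interaction, the change from U to UN minus the change from untreated to BBN bladder, was called for 0 of 5 members and for 2.33% of 18757 genes in either direction. It was 2.15 ± 0.88 for Krt18 (95% interval 0.34 to 3.97, adjusted p = 0.303) and 2.0 ± 0.93 for Krt8 (95% interval 0.05 to 3.87, adjusted p = 0.391). Without UN 2 both were called, at 2.37 (adjusted p = 0.0422) and 2.18 (adjusted p = 0.0867) by edgeR. In that fit 459 of 18730 genes were called higher and 160 lower. Without the bladders of mice 1, 3 and 4, and with UN 2 kept, 0 members were called. There 782 of 16592 genes were called higher and 340 lower. The positive sign of Krt18 and Krt8 in UN against U, which enters the interaction, did not hold in every test (Krt18 at -0.27 by limma-trend). The values were 1.46 ± 0.94 for Krt7, 0.84 ± 0.94 for Krt19 and -0.37 ± 1.23 for Krt20.

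Across the 37 libraries the members formed pairs of likeness that cut across the types. The correlation of log2(CPM + 4) was r = 0.963 for Krt7 and Krt19 and r = 0.946 for Krt8 and Krt18, and Krt20 was the least alike, with r from 0.519 (with Krt19) to 0.690 (with Krt8). Without UN 2 the first pair had r = 0.932 and the second r = 0.901, and Krt18 and Krt19, both type I, had r = 0.635. These libraries share mice, tissues and the amount of epithelium, so the values are descriptions. Among 10577 genes with a mean of at least 10 CPM, those most like Krt7 were Kcnk1 (r = 0.953), Serinc2 (0.952) and Perp (0.939), and those like Krt19 included Serinc2 (0.955) and Cldn7 (0.940), all over 37 libraries. Krt8 was most like Spint1 (0.902), Tmprss2 (0.900) and Foxa1 (0.890), and Krt18 was most like Tmprss2 (0.889), Foxq1 (0.883) and the uroplakin Upk1b (0.881). Krt20 was most like Zfp763 (0.851), Pkn2 (0.844) and Ptprs (0.834). These lists depend on UN 2. Without it, over 36 libraries, Krt8 was most like Nfe2l3 (0.895), Il17re (0.892) and Mcu (0.888) and Krt18 was most like Bcl2l14 (0.888), Scamp5 (0.869) and Nfe2l3 (0.867), so all 3 genes differed for both. Kcnk1 was still among the 3 for Krt7, Cldn7 for Krt19, and Zfp763 and Pkn2 for Krt20.

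Per kilobase, leaving Krt7 out for its uncertain length, the order of the members differed between groups, as a description with no test. In U the median was 247 CPM per kb for Krt18, 238 for Krt19, 143 for Krt8 and 56.3 for Krt20, and Krt18 was above Krt19 within 4 of 6 libraries, or within all 6 with GENCODE lengths. In UT the median was 956 CPM per kb for Krt19, 326 for Krt18, 317 for Krt8 and 32.3 for Krt20, and Krt8 was above Krt18 within 5 of 11 libraries. In BBN bladder it was 1116 for Krt19, 314 for Krt18, 293 for Krt8 and 36.0 for Krt20, where untreated bladder had Krt18 first.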

How the data were processed

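RNA of 37 ureter and bladder samples was sequenced, and the table deposited by the authors holds estimated counts for each symbol, some of them fractional and none scaled to depth. The submitters' processing notes name GRCm38, mm10, TopHat2 2.1.1 and Cuffdiff 2.2.1, with no role given, and the counting program is not given in the sources used here. Totals ran from 3557700 to 18793600 counts per library, and 1 count was worth at most 0.281 CPM. All columns matched a sample by name (0 columns not used).

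The counts were rounded and tested with edgeR 4.0.16 (R 4.3.3, TMM, filterByExpr, quasi-likelihood test, Benjamini-Hochberg adjustment). One fit held 10 UT, 7 UN and 6 U, another 9 BBN and 3 untreated bladders, and the last UN, U and both bladder groups. UT 9 was left out because the paper shows 10 UT libraries without it, and the BBN bladder of mouse 6 because its library name carries T. A call was an FDR under 0.1 with a fold of at least 2. Levels are CPM of the deposited totals. Relative levels and ratios used log2(CPM + 4) and two-sided exact permutation tests (scipy), which take libraries as independent. U libraries are both ureters of 3 mice, and UT 5R and 5L are of 1 mouse, so p-values there rest on fewer animals than libraries.

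A UT and a UN library that share a number are from 1 mouse. The correlation of their deviations from group means had a median of -0.09 over 6 pairs and of -0.01 over 64 pairs of different mice. No library copied another (0 identical pairs). The edgeR and permutation scripts were tested on simulated data. Alternatives were DESeq2 1.42.0, limma 3.58.1, RLE, no filter, other sample sets, RNA integrity as a covariate, the mouse as a block or random effect, a pseudocount of 1 and other reference genes. The members and gene lists were chosen with earlier results of these data known. Named genes are the 5 members, the 3 most correlated genes of each, and at most 6 called genes of each list by size of change. One of the correlated genes, and 1 setting with a shorter reference list, are not reported here.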

Additional observations from a re-analysis of the deposited data

Results flagged for a closer look

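The levels of the members were searched for a library lying far from the rest of its group, over 24 sets of values, and chance marks about 1 in 20 such sets. UN 2 was the lowest of the UN libraries by a wide gap for Krt8, at 3.29 CPM, and for Krt18, at 4.66 CPM. Its 20 pan-epithelial genes summed to 57.5 CPM and its adipocyte genes to 21314 CPM. U 2L was the lowest of the untreated ureters by a wide gap for Krt7 (317 CPM), Krt18 (202 CPM) and Krt19 (212 CPM). It also had the lowest pan-epithelial sum of that group, 439 CPM, and an adipocyte sum of 20431 CPM. The part of these tissues in the keratin levels was not tested.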

How the results depend on the processing

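Counts of members called changed as follows. In BBN against untreated bladder the 1 call became 0 with RLE scaling and 0 without the filter on low counts (0 to 1 with each library left out). In UT against U the 3 calls became 1 with limma-trend, 1 with RNA integrity as a covariate, 1 when mouse was a random effect (Krt19 in each), 0 with both ureters of each untreated mouse summed, and 4, with Krt20 lower, with all 11 UT, with DESeq2, with only the 2 groups in the fit and without UN of mice 2 and 6 (2 to 4 with each library left out). In UN against U the 0 calls became 1 with DESeq2 and 3 without UN of mice 2 and 6 (0 to 3). The interaction went from 0 to 2 calls without UN of mouse 2. Of the 20 relative levels 6 passed, 3 with the median of the list, 2 with Cdh1 alone and 5 to 9 with each library left out, and for the Krt8 to Krt18 ratio 3 to 4 of 4 passed.

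With the mouse as a replicate block, which pairs UT and UN, 0 members were called, Krt20 turned to 0.36, and its interaction turned to 1.23. The block changed no other member's call, but ended that of the Krt8 to Krt18 ratio in UT against UN (0.39, exact sign-flip permutation p = 0.156). Other values turned sign only among results that were not called. For UT against UN, Krt18 was -0.032 with all 11 UT and -0.31 without UN 2 and 6 (-0.16 to 0.32 with each library left out), Krt8 -0.10 without UN 2 and 6, and Krt20 0.85 with limma-trend and 0.77 with the random effect (-0.30 to 0.50). For UN against U, limma-trend gave -0.17 for Krt7 and -0.27 for Krt18, and the random effect -0.31 for Krt7, -0.0092 for Krt8 and -0.37 for Krt18. Within mice, without mice 2 and 6, the means were -0.080 for Krt7, -0.31 for Krt8, -0.60 for Krt18, -0.045 for Krt19 and -0.69 for Krt20, and with each mouse left out they ran from -0.038 to 1.14 for Krt18 and from -0.20 to 1.18 for Krt20.

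For relative levels, without UN 2, Krt7 (-0.14) and Krt19 (-0.18) turned in UT against UN, and Krt8 (0.057) and Krt19 (0.17) in UN against U. With Cdh1 alone these were -0.39, -0.41, 0.31 and 0.43. With each library left out they ran from -0.14 to 0.53, -0.18 to 0.45, -0.54 to 0.057 and -0.46 to 0.17. Krt19 in UT against U was 0.035 with ureters averaged, 0.22 with the median, 0.014 with Cdh1 and -0.12 to 0.089 with each library left out. The settings that leave out UN 2 or UN 2 and 6, average ureters, or change the reference to the median or Cdh1, and the paired ratio, were chosen after seeing the data. In the ureter fits each library was left out in turn as planned, UN 2 among them, but UN 2 was singled out after its levels had been seen. The cause of these changes was not tested. With 3 untreated bladders and 3 untreated mice, p-values have few steps, and levels of Krt20 in UN 2 rest on 2 counts.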
